A study of Mus musculus with 6 samples.

Results

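The nuclear genes for the subunits of complex I of the respiratory chain were taken as the rows whose mouse symbol begins with *Nduf* followed by the class letters ab, a, b, c, s or v and a digit, which leaves out the *Ndufaf* assembly factors. This rule found 38 of the 23183 gene symbols, and all 38 passed the filter of a mean of at least 1 FPKM (sequenced fragments of a gene, scaled to the length of its exons and to the depth of the library). RNA was sequenced from microvessels isolated from the brains of 3 WT mice (TEK-cre, *Crif1*+/+) and 3 TEKCRIF1 KO mice (TEK-cre, *Crif1* flox/flox), labelled C57BL/6, with 1 library per mouse and no treatment. Both genotypes thus carried the Cre transgene, and they differed in the floxed *Crif1* alleles. The *Tek* promoter drives Cre in endothelial cells and is also known to act in blood-forming cells and their descendants, and recombination by cell type cannot be read from these libraries. Ages of the mice are not given in the sources used here.

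Complex I takes electrons from NADH, passes them along a chain of iron-sulfur clusters to ubiquinone, and pumps protons across the inner mitochondrial membrane. Its matrix arm holds the flavin and the iron-sulfur clusters, and its membrane arm holds the proton pumps. The core subunits of the matrix arm are encoded in the nucleus and those of the membrane arm by mitochondrial DNA, while accessory subunits, all of nuclear origin, surround both arms. CRIF1, encoded by *Gadd45gip1*, binds the mitochondrial ribosome and is needed for inserting the mitochondrially encoded subunits into the membrane. The comparison of KO with WT asks whether transcripts of the nuclear subunits differ when that gene is deleted in endothelial cells.

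The deleted gene was examined first. *Gadd45gip1* had levels of 18.79, 15.32 and 16.5 FPKM in WT 1 to 3, against 10.83, 7.537 and 10.35 FPKM in KO 1 to 3. Every KO library lay below every WT library, with means of 9.57 ± 1.78 against 16.9 ± 1.76 FPKM (SD, n = 3 mice/group). The difference was −0.77 ± 0.22 (SE) on the log2(FPKM + 1) scale, with an unadjusted limma p of 0.00534, an adjusted p of 0.841 over all genes and an exact permutation p of 0.1, the smallest that 3 mice against 3 allow.

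Depth, estimated from the FPKM values, ran from 6600000 fragments in KO 2 to 12000000 in KO 3, so that 3 fragments of a 1-kb transcript gave 0.25 to 0.46 FPKM. Of the 14247 genes tested, 838 were under an unadjusted p of 0.05, and after adjustment none was (0%, smallest adjusted limma p 0.841). All 10 endothelial markers were detected, with summed levels of 1020 to 1430 FPKM in WT and 904 to 1230 FPKM in KO. A higher mean in KO was found for 3 of the 10, against 49.2% of all genes. Here and in all such counts below, the mean is that of log2(FPKM + 1), which can differ in direction from the mean FPKM. Of the 10, 1 against 5.88% of all genes, the adherens junction gene *Cdh5*, had an unadjusted p under 0.05. *Cdh5* was at 86.68, 92.35 and 91.3 FPKM in WT 1 to 3 and at 50.77, 42.47 and 38.13 FPKM in KO 1 to 3, below WT in every KO library, with a difference of −1.03 ± 0.19 (SE; unadjusted limma p 0.000303, adjusted p 0.841). Markers of pericytes, smooth muscle, astrocytes, neurons, oligodendrocytes, microglia and fibroblasts were also present in every library, so each value describes a mixture of cells. In such bulk RNA, fewer cells of a type and less RNA per cell cannot be told apart.

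The promoter windows of the members were searched for short motifs of factors known to act on respiratory chain genes. RefSeq windows (GRCm38.p6) of 250 bases upstream and 50 downstream of the start were found for 33 of the 38 members, and each motif was searched on both strands. A gene with several starts has several windows and was counted once if any of them held the motif. *Ndufa2*, *Ndufa4l2*, *Ndufb9* and *Ndufs1* were among those without one. The motif of nuclear respiratory factor 1 (NRF1), written as GCGCA, any base and GCGC, was found for 7 of the 33 members (21.2%) and for 5.19% of all 27025 genes with a window. *Ndufb4* held more than 1 match, and the one nearest its start is shown. The 30-base windows around the match in 6 of these members are given 5′ to 3′ on the gene's strand, with the match in capitals.
*Ndufa5*, chr6:24527697-24527726, minus strand: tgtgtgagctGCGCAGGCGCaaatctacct
*Ndufa8*, chr2:36049349-36049378, minus strand: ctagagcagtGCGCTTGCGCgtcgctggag
*Ndufa11*, chr17:56717692-56717721, plus strand: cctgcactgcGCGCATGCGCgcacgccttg
*Ndufb4*, chr16:37654371-37654400, minus strand: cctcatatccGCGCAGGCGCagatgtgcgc
*Ndufs5*, chr4:123718265-123718294, minus strand: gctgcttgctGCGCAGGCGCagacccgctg
*Ndufs6*, chr13:73328479-73328508, minus strand: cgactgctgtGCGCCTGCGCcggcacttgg

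The seventh member was *Ndufa6*, whose match lay downstream of its start. The motif AAGATGGCG of YY1 was found for 5 of the 33 members (15.2%) against 1.64% of all genes, in each case 23 to 36 bases after the start. These members were *Ndufa9*, *Ndufc1*, *Ndufs4*, *Ndufs6* and *Ndufs7*, and the windows of *Ndufa9* and *Ndufc1* show the match in capitals.
*Ndufa9*, chr6:126849097-126849125, minus strand: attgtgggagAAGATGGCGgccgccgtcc
*Ndufc1*, chr3:51408915-51408943, minus strand: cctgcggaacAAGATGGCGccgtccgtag

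The CREB1 motif TGACGTCA was found in *Ndufa10*, *Ndufa11* and *Ndufb2*, 9.1% of the 33 members against 2.03% of all genes. The GABPA motif CCGGAAGT was found in *Ndufs3*, 3.0% against 4.31%, and the ESRRA motif TCAAGGTCA in 0 members against 0.466% of all genes. A match describes the letters of the window and not binding of the factor. The genes compared were not matched to the members for the GC content of their windows or for their level. The 7 members with an NRF1 match had median differences from their own WT mean of 0.40, −0.49 and 0.18 in KO 1, KO 2 and KO 3 on the log2(FPKM + 1) scale. The remaining 26 members with a window had 0.56, −0.35 and 0.39 in the same libraries. After each library's trend on transcript length was removed, as described further on, the medians in KO 1 to 3 were 0.03, −0.45 and 0.07 with a match and 0.34, −0.27 and 0.36 without, so the values of KO 1 and KO 3 were then closer to WT for the members with a match, a difference that was not tested.

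**Figure D1:**
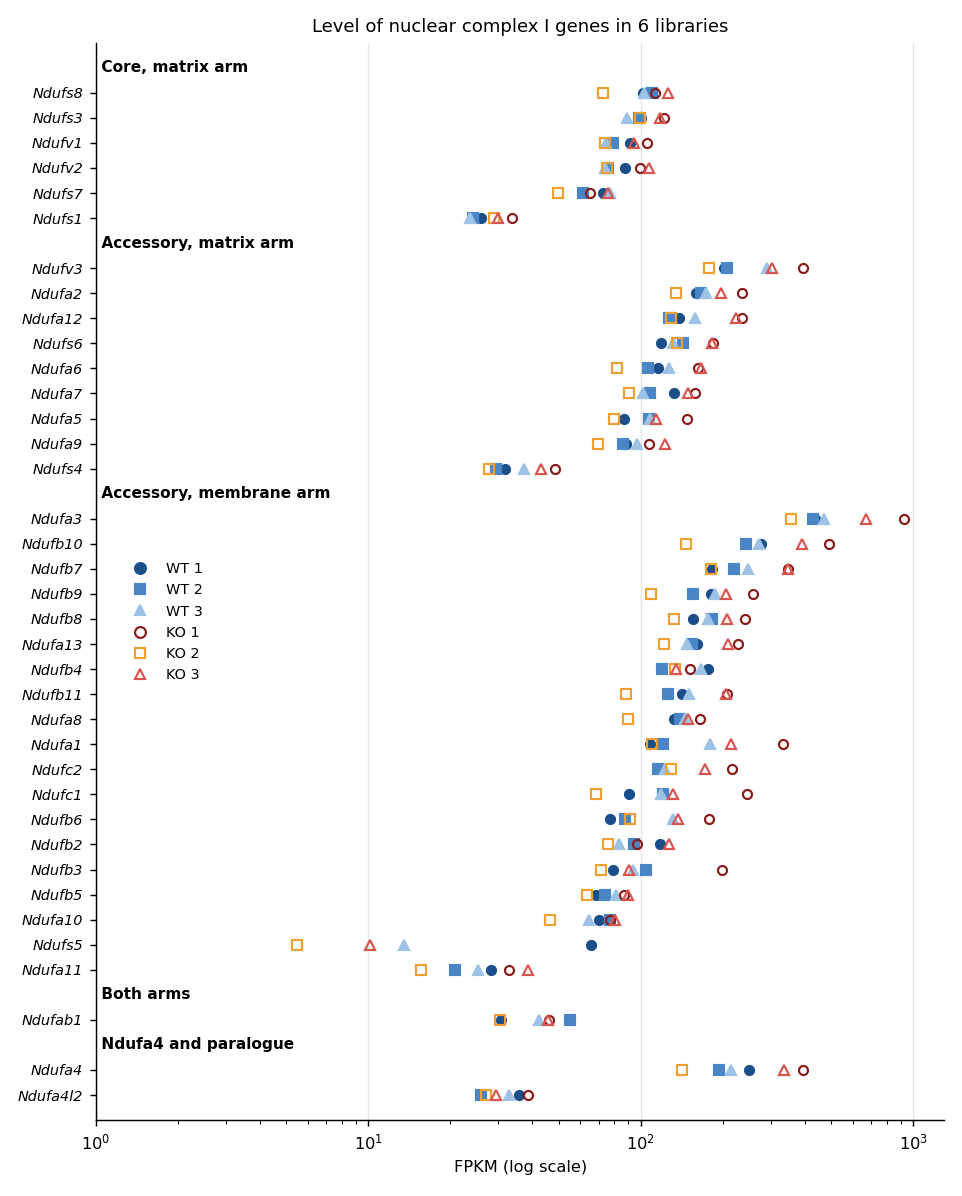
FPKM of nuclear complex I genes in each library on a log axis, grouped by core or accessory subunit and arm, with filled symbols for WT 1 to 3 and open symbols for KO 1 to 3. KO 2 (open squares) lies at or below the WT symbols for most genes and KO 1 and KO 3 lie above them, and *Ndufs5* has no symbol where it is listed at 0, in WT 2 and KO 1.

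Levels of the subunits in WT microvessels were compared per length of transcript, as FPKM. The 7 core subunits had a median WT mean of 81.7 FPKM (24.6 to 105), and the 29 accessory subunits 117 FPKM (24.8 to 445). The 16 genes of the matrix arm had a median of 98.3 FPKM and the 19 of the membrane arm 136 FPKM. Among the 14247 genes tested the median was 9.48 FPKM, and the WT mean of every member was above it.

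The highest member was *Ndufa3*, a small accessory subunit of the membrane arm, at 433.8, 429.5 and 471.5 FPKM in WT 1 to 3 and 924, 356.2 and 668.9 FPKM in KO 1 to 3. In the b class, *Ndufb10*, an accessory subunit on the intermembrane-space side, was highest at 263 ± 18.2 FPKM in WT (SD, n = 3) and *Ndufb5* lowest at 74.4 ± 6.3 FPKM. In the s class, *Ndufs6*, a zinc-binding subunit of the matrix arm, was highest at 131 ± 12.2 FPKM. *Ndufv3*, an accessory subunit beside the flavin-binding subunit, was the highest of the v class at 233 ± 49.3 FPKM, and *Ndufa11*, of the membrane arm, was the lowest of the a class at 24.8 ± 3.75 FPKM. The WT libraries were close to each other, with a median coefficient of variation of 10.2% over the 38 genes against 19.1% over all genes. The KO libraries were spread wider, at 28.3% over the 38 genes against 26.7% over all genes.

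The core subunits carry out electron transfer, and 5 of the 7 had a higher mean in KO, against 49.2% of all genes, with a median difference of 0.15 on the log2(FPKM + 1) scale against −0.01 over all genes. None of the 7 had an unadjusted p under 0.05, against 5.88% of all genes. *Ndufs1*, the largest core subunit and a carrier of several iron-sulfur clusters, was at 25.88, 24.3 and 23.67 FPKM in WT 1 to 3 and at 33.64, 28.98 and 30.04 FPKM in KO 1 to 3. All 3 KO libraries lay above the WT libraries. The difference was 0.31 ± 0.18 (SE), with an unadjusted limma p of 0.116, an adjusted p of 0.841 and an exact permutation p of 0.1. Exons of *Ndufs1* (chr1:63143596-63176833) overlap those of *Eef1b2* and *Ino80dos* on the opposite strand.

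*Ndufv1*, the subunit that binds NADH and the flavin, was at 91.57, 78.84 and 74.64 FPKM in WT 1 to 3 and at 105.2, 74.18 and 94.12 FPKM in KO 1 to 3. *Ndufv2*, its iron-sulfur partner, was at 87.75, 76.1 and 73.9 FPKM in WT and at 99.1, 75.06 and 107.4 FPKM in KO. For both, KO 1 and KO 3 were the highest libraries and KO 2 lay near the lowest WT library. Their differences were 0.15 ± 0.21 and 0.23 ± 0.21 (SE), with adjusted p of 0.948 and 0.901.

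*Ndufs7*, which carries the last iron-sulfur cluster before ubiquinone, was at 72.65, 61.61 and 76.8 FPKM in WT 1 to 3 and at 64.89, 49.56 and 76 FPKM in KO 1 to 3. KO 2 was the lowest of the 6 libraries and WT 3 the highest, and the groups overlapped. *Ndufs7* had the most negative difference of the core subunits, −0.16 ± 0.22 (SE; unadjusted limma p 0.474).

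*Ndufs3*, a structural core subunit beside the ubiquinone pocket, was at 99.81, 98.39 and 89.25 FPKM in WT 1 to 3 and at 121.5, 98.95 and 117.3 FPKM in KO 1 to 3. Its KO 2 value lay among the WT values, and 39.7% of the 50-base windows of its transcript also occur in transcripts of other genes. *Ndufs8*, an iron-sulfur subunit of the same region, was at 102.1, 109.9 and 102.7 FPKM in WT and at 113, 72.86 and 125.7 FPKM in KO. The differences were 0.23 ± 0.19 and −0.05 ± 0.24 (SE), with adjusted p of 0.89 and 0.986.

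Among the accessory subunits, 24 of 29 had a higher mean in KO and the median difference was 0.17, with 1 unadjusted p under 0.05, where 49.2% of all genes had a higher mean and 5.88% such a p. That gene was *Ndufc2*, a small accessory subunit of the membrane arm, at 114.2, 115.7 and 122.4 FPKM in WT 1 to 3 and at 215.3, 129.5 and 171.8 FPKM in KO 1 to 3. All KO libraries lay above all WT libraries, with KO 2 just above WT 3. The means were 117 ± 4.35 and 172 ± 42.9 FPKM (SD, n = 3 mice/group), a difference of 0.52 ± 0.23 (SE) with an unadjusted limma p of 0.0474, an adjusted p of 0.841 and an exact permutation p of 0.1. *Ndufc2* (chr7:97400003-97407802, plus strand, 3 exons) shared no 50-base window with another gene. The unadjusted p was above 0.05 for *Ndufc2* when any WT library, KO 1 or KO 3 was left out, and in 6 other alternatives that left out no library. The difference itself stayed at 0.34 to 0.55 in these 11 settings.

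The rest of the 5 largest differences over the 38 genes belonged to other accessory subunits, with KO 1 and KO 3 as the highest libraries of each. *Ndufa1*, a membrane subunit needed for assembly of the complex, was at 108.2, 121.1 and 178.7 FPKM in WT 1 to 3 and at 331.2, 110.1 and 214.6 FPKM in KO 1 to 3, a difference of 0.58 ± 0.37 (SE). *Ndufb6*, a membrane subunit, was at 77.04, 87.34 and 131.7 FPKM in WT and at 178.4, 91.46 and 136.6 FPKM in KO, a difference of 0.44 ± 0.29. *Ndufa12*, an accessory subunit of the matrix arm, was at 137.7, 126.7 and 157.7 FPKM in WT and at 234.8, 129.3 and 222.7 FPKM in KO, a difference of 0.43 ± 0.26. In all 3, KO 2 fell within the WT range and KO 1 was the highest library. *Ndufa3* differed by 0.44 ± 0.34, and for *Ndufa3* KO 2 was below every WT library. Leaving out a KO library moved all 4. Without KO 1 the differences of *Ndufa1*, *Ndufa3*, *Ndufb6* and *Ndufa12* were 0.21, 0.13, 0.22 and 0.27, and without KO 2 they were 1.00, 0.82, 0.69 and 0.70. Without WT 1 and without WT 3 *Ndufb6* differed by 0.28 and 0.67. After length correction *Ndufa1* and *Ndufa3* differed by 0.22 and 0.20. After length and GC correction the differences of *Ndufa1*, *Ndufa3* and *Ndufb6* were 0.16, 0.22 and 0.26. *Ndufa12* moved less under these corrections, to 0.39 and 0.41. The unadjusted limma p of these 4 genes ran from 0.133 for *Ndufa12* to 0.226 for *Ndufa3*. Of *Ndufb6*, 34.1% of the 50-base windows are shared with *Smim27* on the opposite strand, and of *Ndufa12* 26.2% with a processed pseudogene.

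The stretches of 100 bases directly upstream of the start are shown for *Ndufc2*, *Ndufa3* and *Ndufb6*, the members among the 5 largest differences whose RefSeq start is also the outer end of the annotated gene, in lower case because none held a match to the motifs.
*Ndufc2*, chr7:97399903-97400002, plus strand: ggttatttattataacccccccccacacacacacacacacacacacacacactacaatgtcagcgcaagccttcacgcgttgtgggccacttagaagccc
*Ndufa3*, chr7:3617273-3617372, plus strand: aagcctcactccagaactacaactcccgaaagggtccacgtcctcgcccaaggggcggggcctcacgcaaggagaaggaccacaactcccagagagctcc
*Ndufb6*, chr4:40279422-40279521, minus strand: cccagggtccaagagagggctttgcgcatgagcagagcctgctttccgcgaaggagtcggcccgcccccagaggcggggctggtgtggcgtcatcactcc

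At the other end, *Ndufb4*, a membrane subunit, was at 176.4, 119.9 and 165.8 FPKM in WT 1 to 3 and at 151.7, 133 and 134.1 FPKM in KO 1 to 3. *Ndufa10*, a membrane-arm subunit related to nucleoside kinases, was at 70.51, 77.11 and 64.77 FPKM in WT and at 76.89, 46.59 and 80.24 FPKM in KO. *Ndufa8*, on the intermembrane-space side, was at 132, 139.8 and 145.1 FPKM in WT and at 164.4, 89.43 and 149.2 FPKM in KO. The groups overlapped in all 3, and KO 2 was the lowest library for *Ndufa10* and *Ndufa8*. The differences were −0.12 ± 0.22, −0.10 ± 0.24 and −0.09 ± 0.25 (SE).

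*Ndufs5*, another subunit on the intermembrane-space side, was the only member listed at 0 in any library. It was at 65.39, 0 and 13.5 FPKM in WT 1 to 3 and at 0, 5.487 and 10.18 FPKM in KO 1 to 3. A subunit gene listed at 0 in 1 library of each genotype and at 65.39 FPKM in another does not allow a level to be set for either genotype. The fitted difference was −1.24 ± 1.32 (SE), and it was 0.13 without WT 1 and −2.90 without WT 2 (unadjusted limma p 0.0145). The transcript shares 31.1% of its 50-base windows with the processed pseudogene *BC002163*, which was at 1.659, 0.6999 and 0.276 FPKM in WT and at 6.12, 0.468 and 3.222 FPKM in KO.

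*Ndufa9*, an accessory subunit of the matrix arm whose protein was stained in these microvessels by the study, was at 88.01, 85.92 and 96.53 FPKM in WT 1 to 3 and at 107.2, 69.62 and 122.8 FPKM in KO 1 to 3. The KO libraries lay on both sides of the WT libraries. The means were 90.2 ± 5.62 and 99.9 ± 27.3 FPKM (SD, n = 3), a difference of 0.11 ± 0.24 (SE) with an adjusted limma p of 0.963. At the level of its transcript, *Ndufa9* did not differ between the genotypes beyond the spread of the KO mice. For the protein, the study reported less overlap of its staining with the endothelial marker CD31 in KO microvessels. Protein was not measured here.

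*Ndufab1*, *Ndufa4* and *Ndufa4l2* are not, or not only, subunits of complex I. The first, *Ndufab1*, is the mitochondrial acyl carrier protein, which serves fatty acid synthesis and is bound in both arms. It was at 30.74, 55.18 and 42.3 FPKM in WT 1 to 3 and at 45.93, 30.51 and 45.64 FPKM in KO 1 to 3. *Ndufa4*, a protein of complex IV despite its name, was at 249.3, 194.2 and 214.5 FPKM in WT and at 392.3, 141.3 and 334.6 FPKM in KO. *Ndufa4l2*, a hypoxia-induced paralogue of *Ndufa4*, was at 35.76, 25.94 and 32.76 FPKM in WT and at 38.71, 26.99 and 29.51 FPKM in KO. *Ndufa4* had KO 1 and KO 3 above and KO 2 below the WT libraries, while the KO and WT libraries of *Ndufab1* and *Ndufa4l2* were interspersed. The differences of *Ndufab1*, *Ndufa4* and *Ndufa4l2* were −0.05 ± 0.26, 0.28 ± 0.36 and 0.01 ± 0.22 (SE).

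**Figure D2:**
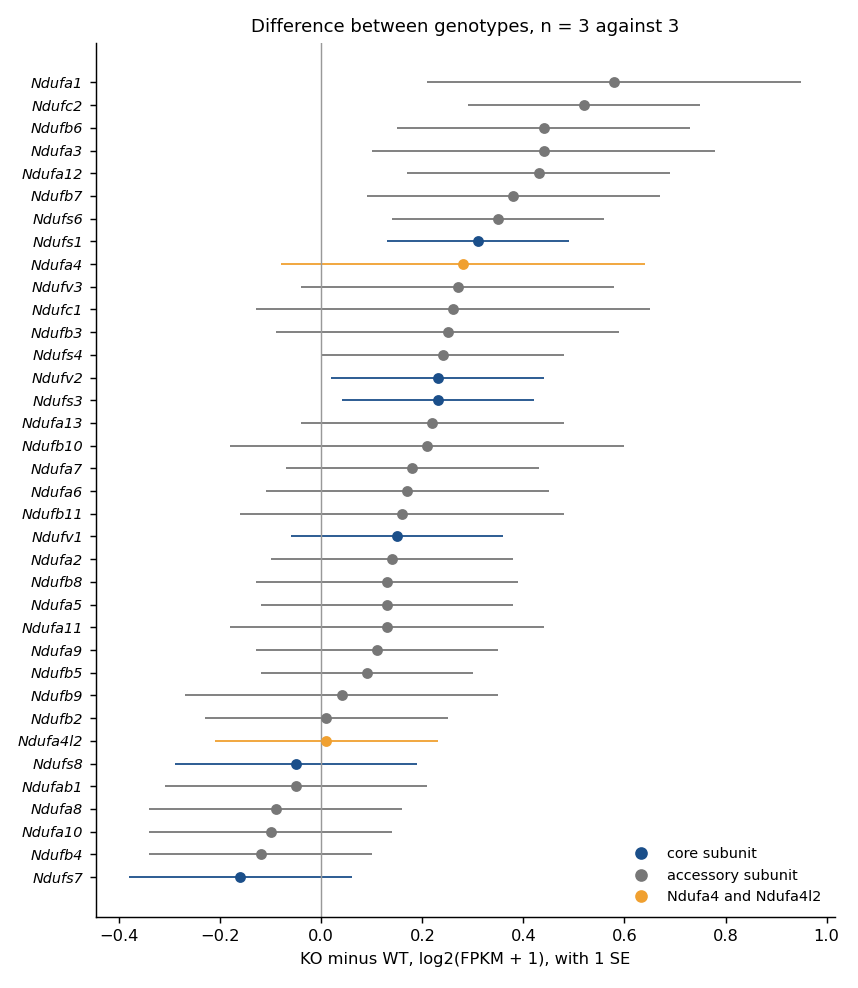
KO minus WT difference of the members on the log2(FPKM + 1) scale, with bars of 1 SE from the limma fit (n = 3 mice/group), *Ndufs5* left out because it is listed at 0 in 2 libraries. Most points lie right of 0, from −0.16 for *Ndufs7* to 0.58 for *Ndufa1*.

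Over the 38 genes, 31 had a higher mean in KO (81.6%), against 49.2% of all genes tested. The median difference was 0.17 (−1.24 to 0.58), against −0.01 for all genes. Only *Ndufc2* had an unadjusted p under 0.05, 1 of 38 genes, where 5.88% of all genes had one, and none of the 38 reached an adjusted p of 0.05. Only *Ndufc2* and *Ndufs1* did not overlap between the genotypes, 2 of 38 genes, both with KO above, where 11.1% of all genes did not overlap and 5.37% had every KO above every WT library. The shares of genes with an unadjusted p under 0.05 and of genes that did not overlap were thus at or under those of all genes, although most members had a higher mean.

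By symbol class, 12 of 14 *Ndufa*, 9 of 10 *Ndufb*, 2 of 2 *Ndufc*, 5 of 8 *Ndufs* and 3 of 3 *Ndufv* genes had a higher mean in KO, where 49.2% of all genes had one, with median differences of 0.16, 0.15, 0.39, 0.14 and 0.23. The single gene of the ab class, *Ndufab1*, had a lower mean in KO, with a difference of −0.05. The matrix arm had 14 of 16 genes with a higher mean and a median of 0.17, and the membrane arm 15 of 19 genes and 0.16. Of the 17 members that share no 50-base window with another gene, 13 had a higher mean in KO and the median was 0.21, and of the 15 of these whose exons also overlap no other gene, 11 had a higher mean and the median was again 0.21.

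**Figure D3:**
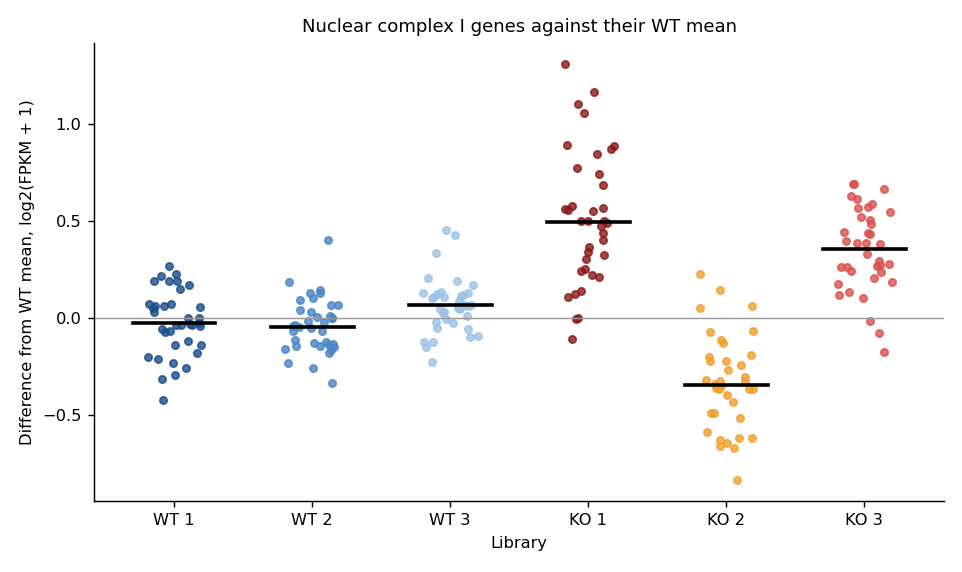
Difference of each member from its own WT mean, on the log2(FPKM + 1) scale, by library, with 1 point per gene (*Ndufs5* not drawn) and a bar at the median of all 38. The WT medians lie at −0.03, −0.05 and 0.06, and the KO medians at 0.49, −0.35 and 0.36, with KO 2 on the other side of 0 from KO 1 and KO 3.

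The members differed less by genotype than by library within the KO group. KO 1 was above every WT library for 32 of the 38 genes, where 31.1% of all genes were, and KO 3 also for 32, where 29.2% of all genes were. KO 2 was below every WT library for 27 of the 38 genes, where 32.6% of all genes were, and above every WT library for 2, where 28.7% were. KO 1 was the highest of the 6 libraries for 24 members (18.6% of all genes) and KO 3 for 10 (18.2%), and KO 2 was the lowest for 27 (25% of all genes).

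Summed over the 38 genes, the level was 4606, 4476 and 4913 FPKM in WT 1 to 3 and 7256, 3624 and 6171 FPKM in KO 1 to 3. As a share of all FPKM of the library this was 1.06%, 1.01% and 1.16% in WT and 1.35%, 0.951% and 1.37% in KO. On both scales KO 1 and KO 3 lay above the WT range and KO 2 below it, so the genotypes overlapped. The core subunits followed the same pattern with smaller medians of 0.32, −0.13 and 0.28 in KO 1 to 3, against 0.55, −0.35 and 0.39 for the accessory subunits.

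The counts depended on which KO libraries were included. Without KO 2, 21 of the 38 genes had an unadjusted p under 0.05, all with a higher mean in KO, where 13.1% of all genes had one and 7.31% with a higher mean, and the smallest adjusted limma p was 0.161. Without KO 1, 0 members had an unadjusted p under 0.05 (3.58% of all genes) and 20 of 38 had a higher mean in KO. Without KO 3, these numbers were 0 (6.97% of all genes) and 23.

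Transcript length, GC content and depth were read beside these library differences. The transcripts of the members were short, with a median of 952 bases (interquartile range 688 to 1548) against 3133 bases (1973 to 4663) over 14152 tested genes with a length. For each library, a gene's difference from its mean over all 6 libraries was correlated with its length across those genes, which are not independent replicates. The Spearman correlation was 0.05, 0.03 and 0.05 in WT 1 to 3 and −0.31, 0.29 and −0.15 in KO 1 to 3. Short transcripts were thus relatively high in KO 1 and KO 3 and low in KO 2. The correlation with GC content was 0.08, 0.31 and 0.15 in WT 1 to 3 and −0.13, −0.26 and −0.02 in KO 1 to 3. It did not set KO 2 on the other side from KO 1 and KO 3. After each library's trend on length was removed, the members' medians in KO 1 to 3 were 0.21, −0.28 and 0.28, and with the trends on GC content taken out as well they were 0.27, −0.21 and 0.27. KO 1 and KO 3 stayed above WT and KO 2 below it, with smaller differences, and 26 and 27 of the 38 genes had a higher mean in KO. For the 7 core subunits alone, the medians after length correction were 0.11, −0.02 and 0.21 in KO 1 to 3 against 0.09, 0.00 and −0.09 in WT 1 to 3, so that KO 2 then lay within the WT range and KO 1 just above it. After length and GC correction they were 0.16, −0.17 and 0.21 in KO 1 to 3 against 0.1, 0.03 and −0.08 in WT 1 to 3. KO 2 then lay below the WT range again. Estimated depth was lower in KO 2 (6600000 fragments) and KO 1 (8100000) than in every WT library. In KO 3 (12000000) it was close to WT 1 (11600000) and WT 3 (11700000). The part of depth was not tested.

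**Figure D4:**
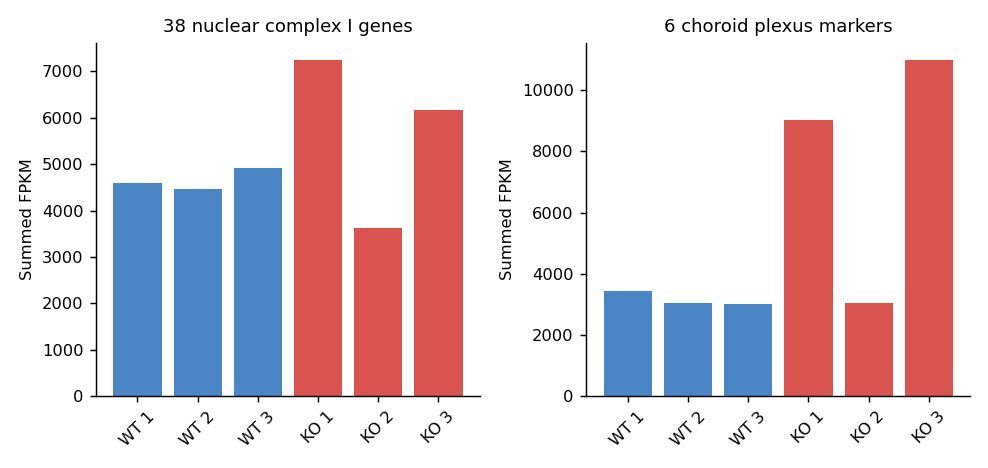
Summed FPKM by library for the 38 nuclear complex I genes (left) and for 6 markers of choroid plexus epithelium (right), with blue bars for WT and red bars for KO, 1 mouse per bar. Both sums are highest in KO 1 and KO 3, and in KO 2 they are lowest (left) or within the WT range (right).

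Markers of choroid plexus epithelium, a mitochondria-rich secretory epithelium of the ventricles, moved with the same libraries. Summed over *Ttr*, *Folr1*, *Kl*, *Clic6*, *Kcnj13* and *Aqp1*, they were at 3450, 3060 and 3000 FPKM in WT 1 to 3 and at 9040, 3060 and 11000 FPKM in KO 1 to 3. KO 1 and KO 3 were far above WT and KO 2 lay within the WT range. All 6 had a higher mean in KO, with a median difference of 0.94, where 49.2% of all genes had a higher mean, and 1 of 6, *Kl*, had an unadjusted p under 0.05, as 5.88% of all genes did (limma p 0.0235, adjusted p 0.841). *Ttr*, which encodes the transthyretin secreted by this epithelium, was at 3093, 2722 and 2628 FPKM in WT and at 8262, 2771 and 9787 FPKM in KO. None of the 6 was listed at 0 in any library. Of the 6 smooth muscle markers all had a higher mean in KO, with sums of 391 to 854 FPKM in WT and 410 to 1070 FPKM in KO. The summed neuron markers were at 398, 615 and 794 FPKM in WT 1 to 3 and at 396, 620 and 273 FPKM in KO 1 to 3, with 2 of 10 higher. KO 3 lay below the WT range, KO 1 level with WT 1 and KO 2 within the range. The summed endothelial markers were at 1230, 904 and 1100 FPKM in KO 1 to 3, of which KO 2 lay below the WT range. The summed astrocyte markers were at 628 to 749 FPKM in WT and 495 to 533 FPKM in KO, with 1 of 8 higher and all KO libraries below WT. The same held for microglia, at 236 to 283 FPKM in WT and 227, 167 and 199 FPKM in KO 1 to 3 with 1 of 8 higher, and for fibroblasts, at 1460 to 2210 FPKM in WT and 1370, 980 and 1340 FPKM in KO 1 to 3 with 0 of 6 higher. Of the oligodendrocyte markers 1 of 8 was higher, with sums of 457 to 592 FPKM in WT and 498, 449 and 270 FPKM in KO 1 to 3. An unadjusted p under 0.05 was found for 3 of these 8, against 5.88% of all genes, all without passing after adjustment. Of the pericyte markers 1 of 8 was higher, with sums of 829 to 1330 FPKM in WT and 866 to 970 FPKM in KO. An unadjusted p under 0.05 was found for 2 of 8 pericyte, 2 of 8 astrocyte and 2 of 10 neuron markers. It was found for 1 of 8 microglia, 1 of 6 fibroblast and 0 of 6 smooth muscle markers, where 5.88% of all genes had one. The part that these cell types had in the levels of the complex I genes was not tested.

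**Figure D5:**
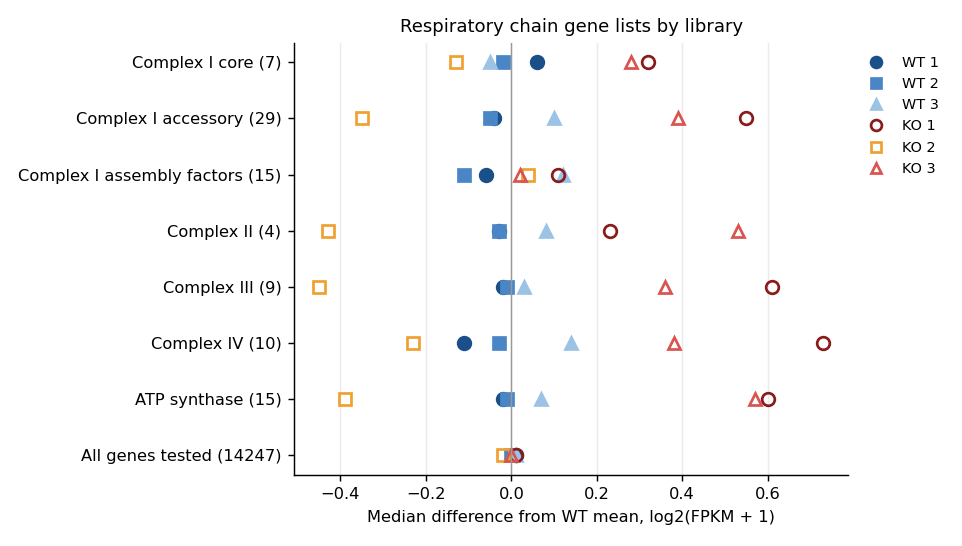
Median difference from the WT mean, on the log2(FPKM + 1) scale, of the genes of each list in each library, with the number of genes in parentheses, filled symbols for WT and open symbols for KO. KO 1 and KO 3 lie above and KO 2 below the WT libraries for the subunits of every complex, while the 6 libraries of the assembly factors lie between −0.11 and 0.12.

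The other genes of the pathway were read the same way. The 15 assembly factors present, which help to build complex I and are not part of it, had medians of 0.11, 0.04 and 0.02 in KO 1 to 3, and 8 of 15 had a higher mean in KO (49.2% of all genes). They were expressed at a lower level than the subunits, with a median WT mean of 10.9 FPKM, and had longer transcripts, with a median of 1710 bases. *Nubpl*, which delivers iron-sulfur clusters to complex I, was at 5.876, 7.552 and 3.657 FPKM in WT 1 to 3 and at 17.09, 6.599 and 11.55 FPKM in KO 1 to 3, with KO 2 within the WT range. It was the 1 assembly factor of 15 with an unadjusted p under 0.05, where 5.88% of all genes had one (limma p 0.0288, adjusted p 0.841), with a difference of 0.89 ± 0.35 (SE). *Ndufaf7*, a mitochondrial methyltransferase, was above every WT library in all 3 KO libraries, at 12.49, 11.07 and 12.47 FPKM in WT and 16.67, 14.88 and 14.14 FPKM in KO, with an adjusted limma p of 0.848.

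Nuclear subunits of the other complexes followed the library pattern of complex I. In KO 1 to 3 the medians were 0.23, −0.43 and 0.53 for the 4 subunits of complex II, and 0.61, −0.45 and 0.36 for 9 of complex III. They were 0.73, −0.23 and 0.38 for 10 of complex IV, and 0.60, −0.39 and 0.57 for 15 of the ATP synthase. The number with a higher mean in KO was 3 of 4, 6 of 9, 10 of 10 and 14 of 15, where 49.2% of all genes had one. An unadjusted p under 0.05 was found for 1 of these 38 genes, against 5.88% of all genes. That gene was *Uqcrb*, a subunit of complex III, at 140.7, 162.8 and 186.8 FPKM in WT 1 to 3 and at 286.3, 226.2 and 259.1 FPKM in KO 1 to 3. Its groups did not overlap, and the difference was 0.65 ± 0.22 (SE; unadjusted limma p 0.0131, adjusted p 0.841). After the trend on length was removed the median of complex III in KO 1 was −0.04, while complex II, complex IV and the ATP synthase kept the sign of each KO library. After length and GC correction the median of complex III in KO 1 was 0.09. The subunits of complex I encoded by mitochondrial DNA were not analysed here.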

How the data were processed

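RNA from brain microvessels of 3 WT and 3 KO mice was sequenced, 1 library per mouse, from libraries of the NEBNext Ultra II Directional kit. The authors checked reads with FastQC, trimmed them with FASTX_Trimmer and BBMap and mapped them with TopHat, and the submitters' processing notes name the build mm10. They deposited FPKM values per gene symbol. The tool that computed them, its annotation and its use of strand are not given in the sources used here.

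Values were analysed as log2(FPKM + 1) with limma 3.58.1 (R 4.3.3, trended prior variance, genotype only, two-sided) for the 14247 genes whose mean over the 6 libraries reached 1 FPKM. Adjusted p-values are Benjamini-Hochberg values over all of these. A fold change on this scale is understated for low genes. For single genes an exact permutation p (two-sided) is given too. Lists are described by counts and medians, read against those of all genes, with no test of the list. The members, gene lists and motifs were chosen with earlier results of these data known. Genes were named by a rule: the core subunits, members with an unadjusted p under 0.05, the 5 largest and 5 smallest differences, the highest and lowest of each symbol class, *Ndufa9*, members outside complex I and *Gadd45gip1*. *Nubpl*, *Ndufaf7*, *Uqcrb*, *Ttr*, *Kl*, *Cdh5* and *BC002163* were singled out after their values were seen. The values of 1 member, left out of both plots that name genes, enter the counts and are not reported here. Transcript length, GC content and sequence shared between genes came from the longest protein-coding transcripts of GENCODE M21 (GRCm38), and loess (span 0.3) removed trends. Gene coordinates are of GRCm38. Depth was estimated from the steps between low FPKM values, and its floor covers counting error only. Scripts used Python 3.11.15 with numpy 2.4.6, pandas 2.3.3 and matplotlib 3.10.9.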

Additional observations from a re-analysis of the deposited data

How the results depend on the processing

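In 17 alternatives (other filters, pseudocount, scalings, corrections for transcript length and GC content, variance model, replicate block and leaving out each library) 0 of the 38 complex I genes passed after adjustment. The number with an unadjusted p under 0.05 was 1, and it was 0 with a filter at a mean of 5 FPKM, median scaling, GC correction, length and GC correction (chosen after seeing the data), no trended variance and the replicate block, and 2 with quantile normalization. Leaving out each library gave 0 to 21 such members (21 without KO 2), 20 to 36 members with a higher mean in KO, and a median difference of 0.01 to 0.39. The other alternatives gave 26 to 32 members and a median of 0.07 to 0.17. Over all genes, leaving out a library gave 450 to 1871 genes with an unadjusted p under 0.05 and 0 to 4 after adjustment. Where leaving out a library left 2 mice in a group, the spread was estimated from the remaining 5 libraries.

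Same-numbered WT and KO libraries did not deviate together (correlations of 0.04, 0.03 and 0), so the replicate numbers were taken as names. These numbers come from the sample titles. The headers of the deposited files carry others, 4, 6 and 8 for WT 1 to 3 and 1, 2 and 6 for KO 1 to 3, of which the groups share only 6, too few for a block. With the replicate block 871 genes and 0 members had an unadjusted p under 0.05.

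Of 425 values of named genes under alternatives, 380 kept their direction and side of 0.05, 11 (all *Ndufc2*) lost an unadjusted p under 0.05, 13 gained it and 21 reversed. Without leaving out a library, *Ndufa4* and *Ndufb5* turned to −0.01 and −0.005 under length and GC correction, *Ndufa4l2* to −0.0017 under quantile normalization and −0.05 under length correction, and *Ndufs7* and *Ndufs8* to 0.0042 and 0.03 under GC correction. Leaving out 1 library turned the others, with differences of −0.0045 to 0.73 for *Ndufa4*, −0.14 to 0.11 for *Ndufa4l2*, −0.26 to 0.17 for *Ndufa8*, −0.06 to 0.35 for *Ndufa9*, −0.23 to 0.15 for *Ndufa10*, −0.11 to 0.51 for *Ndufa11*, −0.27 to 0.15 for *Ndufab1*, −0.0023 to 0.24 for *Ndufb5*, −0.13 to 0.73 for *Ndufb10*, −0.20 to 0.71 for *Ndufc1*, −2.90 to 0.13 for *Ndufs5*, −0.30 to 0.0035 for *Ndufs7* and −0.21 to 0.18 for *Ndufs8*. The cause was not tested.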
